A study of Mus musculus with 2 samples.

Results

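The keratin genes of the mouse were examined as every RefSeq entry whose gene symbol is Krt followed by a number and at most 1 letter, which gave 58 entries of 55 symbols among 24165 entries of 20128 symbols. Keratin-associated proteins (Krtap) and genes whose names only begin with Krt were not members. The measurements came from C2C12, an established line of mouse myoblasts that grow as single cells and can fuse into muscle fibres. Untreated cells at 80% confluency were profiled by global run-on sequencing (GRO-seq), in which engaged RNA polymerases extend their transcripts in isolated nuclei with bromouridine and the labelled RNA is captured and sequenced. There was a single group of 2 replicate libraries, which the authors pooled into 1 value of gene activity per entry. Activity is the density of reads on the sense strand of the gene body, in reads per kilobase of mappable sequence normalised to library depth (RPKmM). An entry that failed the authors' comparison with gene-free stretches of the genome carries the mark Inactive and has no value.

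Keratins are the intermediate filament proteins of epithelial cells. A filament is built from pairs of an acidic type I and a basic type II keratin, so that neither type assembles alone, and type I genes lie in a cluster on mouse chromosome 11 and type II genes in a cluster on chromosome 15, beside which the type I gene Krt18 sits. Simple epithelia, such as those of gut and liver, use K8 with K18, often with K7, K19 or K20. Basal cells of stratified epithelia use K5 with K14, and cells above them change to pairs such as K1 with K10 in the epidermis and K4 with K13 in the oesophagus. Hair and its inner root sheath have keratins of their own. Muscle cells build their filaments mainly from vimentin and desmin.

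Most keratin entries were marked Inactive in the myoblasts. The mark was on 48 of the 58 entries (82.8%), beside 29.8% of all entries, and 10 entries of 7 symbols were active (17.2%, beside 70.2% of all entries). The active entries lay between 0.01 and 0.8 RPKmM with a median of 0.055, or 0.03 with a single entry per symbol, since Krt13, Krt19 and Krt14 each have 2 active entries. By comparison, the 16957 active entries of the whole table had a median of 0.87. In descending order of their most active entry the active genes were Krt80, Krt13, Krt19, Krt10 and Krt14 (equal), Krt9 and Krt7. Only 4 keratin entries (6.90%) reached 0.1 RPKmM, a level reached by 57.2% of all entries. Because the libraries were pooled, no value has an error, no test between groups was possible, and the order of neighbouring values in this series cannot be set against replicate spread.

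Promoter sequences are given first for the keratins on which these observations turn. They are the 250 bases before the annotated start, 5′ to 3′ on the gene's strand, from a table of RefSeq promoters on assembly GRCm38.p6. The table used here matched 36 of the 55 keratin symbols (37 promoters), and Krt80 and Krt19 were not among them. Capitals mark matches on either strand to 4 motifs. TATAAA is the core of the TATA box, which positions the start of transcription. The GC box was searched as GGGCGG and is bound by factors of the Sp family. TGANTCA takes in the site of AP-1 factors, which has C or G at its centre, and also the same letters around A or T. The E-box searched was CAGCTG, of the kind that myogenic factors bind. The active genes Krt13, with 2 annotated starts 989 bases apart, and Krt7 are shown first.
Krt13 upstream start, minus strand, chr11:100121567-100121816: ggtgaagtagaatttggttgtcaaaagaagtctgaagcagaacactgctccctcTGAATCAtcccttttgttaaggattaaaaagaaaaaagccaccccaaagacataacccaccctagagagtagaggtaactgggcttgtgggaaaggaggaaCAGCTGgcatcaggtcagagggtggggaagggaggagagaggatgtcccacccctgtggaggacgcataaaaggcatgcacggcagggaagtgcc
Krt13 downstream start, minus strand, chr11:100120578-100120827: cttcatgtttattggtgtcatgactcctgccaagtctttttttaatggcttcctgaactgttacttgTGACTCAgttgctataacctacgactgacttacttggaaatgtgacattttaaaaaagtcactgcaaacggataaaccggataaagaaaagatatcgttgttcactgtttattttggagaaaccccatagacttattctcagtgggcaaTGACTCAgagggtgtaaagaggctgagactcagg
Krt7, plus strand, chr15:101412153-101412402: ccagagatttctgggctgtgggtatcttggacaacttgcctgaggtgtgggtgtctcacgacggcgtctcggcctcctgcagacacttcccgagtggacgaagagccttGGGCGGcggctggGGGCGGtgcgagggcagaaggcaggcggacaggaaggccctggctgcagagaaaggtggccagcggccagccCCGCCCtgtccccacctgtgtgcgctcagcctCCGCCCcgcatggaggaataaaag
Both Krt13 promoters hold TGANTCA, with its first base at position -196 from the upstream start and at positions -183 and -34 from the downstream start, and they were the only keratin promoters of the 37 with this motif (5.41%, beside 7.81% of all 32851 promoters). Both matches at the downstream start have C at the centre, as the AP-1 site does, and the match at the upstream start has A. With C or G required at the centre, the motif was in 1 keratin promoter (2.70%) and 5.20% of all promoters. CAGCTG stands at -95 from the upstream Krt13 start and was found in 18.9% of keratin promoters and 16.3% of all promoters. Krt7 has 4 matches to GGGCGG, at -141, -128, -56 and -24. This motif was present in 2 keratin promoters, those of Krt7 and the hair follicle keratin Krt75 (5.41%), beside 35.7% of all promoters.

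The next set shows the TATA box sequence in the active suprabasal keratin Krt10 and in 2 keratins marked Inactive, the intestinal Krt20 and the hair keratin Krt31.
Krt10, minus strand, chr11:99389365-99389614: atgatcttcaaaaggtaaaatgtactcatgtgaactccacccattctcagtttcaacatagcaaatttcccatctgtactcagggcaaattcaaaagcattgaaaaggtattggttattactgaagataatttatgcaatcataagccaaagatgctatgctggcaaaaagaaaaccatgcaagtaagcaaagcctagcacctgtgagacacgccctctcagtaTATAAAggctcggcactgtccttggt
Krt20, minus strand, chr11:99438154-99438403: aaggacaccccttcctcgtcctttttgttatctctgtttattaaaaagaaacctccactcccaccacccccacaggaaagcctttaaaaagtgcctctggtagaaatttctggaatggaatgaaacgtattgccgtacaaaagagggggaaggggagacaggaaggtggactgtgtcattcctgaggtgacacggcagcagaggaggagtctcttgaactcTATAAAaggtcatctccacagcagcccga
Krt31, minus strand, chr11:100050552-100050801: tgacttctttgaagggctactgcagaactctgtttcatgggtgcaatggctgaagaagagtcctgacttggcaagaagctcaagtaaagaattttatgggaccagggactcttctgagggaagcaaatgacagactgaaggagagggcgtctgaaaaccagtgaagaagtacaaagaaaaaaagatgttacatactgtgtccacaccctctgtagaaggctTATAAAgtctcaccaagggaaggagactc
TATAAA begins at -26 in Krt10 and at -29 in both Krt20 and Krt31. On the sense strand it occurred in 17 of the 37 keratin promoter windows of 300 bases, which run to 50 bases past the start (45.9%), and in 8.32% of all promoters. It began between -40 and -20 in 13 keratin promoters (35.1%) and in 1.99% of all promoters. Only 6 of the 37 keratin promoters belonged to active genes, and TATAAA stood on the sense strand anywhere in the window in 1 of these 6 and in 16 of the 31 of genes marked Inactive. Of the 13 between -40 and -20, Krt10 was the active gene, and the others belonged to keratins of the inner root sheath (Krt25, Krt26, Krt28, Krt71, Krt73), of hair (Krt31, Krt32, Krt34, Krt40), of the cornea (Krt12), of the intestine (Krt20) and of the hard palate (Krt76). Among all genes of the table the motif was in 4.43% of the promoters of active symbols and 10.9% of those of symbols marked Inactive. A match is a sequence description and not a measured site of binding.

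The last set holds Krt8 and Krt18, the defining pair of simple epithelia, both marked Inactive. None of the 4 motifs was found in the upstream bases printed, but the 50 bases after the start of Krt8, which are not printed, bring TATAAA and CAGCTG into its window, and the Krt18 window holds none of the 4.
Krt8, minus strand, chr15:102004343-102004592: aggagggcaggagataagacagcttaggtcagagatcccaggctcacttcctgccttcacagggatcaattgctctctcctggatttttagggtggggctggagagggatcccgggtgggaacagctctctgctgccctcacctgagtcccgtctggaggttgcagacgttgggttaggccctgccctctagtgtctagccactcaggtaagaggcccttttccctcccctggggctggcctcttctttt
Krt18, plus strand, chr15:102027966-102028215: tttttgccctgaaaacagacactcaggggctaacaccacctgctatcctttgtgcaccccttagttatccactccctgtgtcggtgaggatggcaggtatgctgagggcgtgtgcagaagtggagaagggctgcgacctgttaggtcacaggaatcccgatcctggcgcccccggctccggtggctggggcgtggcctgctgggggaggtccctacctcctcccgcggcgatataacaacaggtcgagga
The promoter windows of keratins had a median GC content of 48.7% and a median ratio of observed to expected CpG of 0.280, close to the promoters of all genes marked Inactive (51.0% and 0.271) and below those of all active genes (60.3% and 0.732). Krt7 had the highest GC content of the keratins (66.3%, with a CpG ratio of 0.641), followed by the skin keratin Krt79 (62.0% and 0.107) and Krt18 (61.3% and 0.603). The highest CpG ratio was that of Krt28 (0.782, at 41.7% GC). The 6 promoters of active keratins had a median GC content of 49.3% and a median CpG ratio of 0.225.

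**Figure D1:**
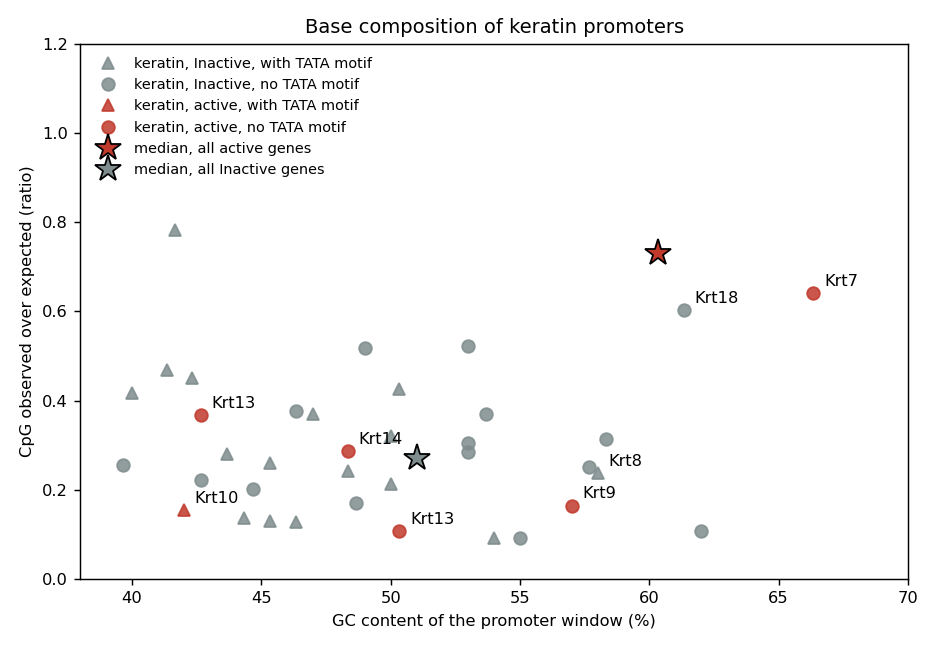
Each point is a keratin promoter window of 300 bases, with its GC content on the x axis and its ratio of observed to expected CpG on the y axis. Red marks genes with an active entry, grey marks genes marked Inactive, triangles mark windows with TATAAA on the sense strand, and stars mark the medians over all active and all Inactive genes. Of the active keratins Krt7 lies nearest to the median of active genes, and the other 5 active promoters lie at a CpG ratio of 0.367 or less.

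Simple-epithelium keratins comprised 6 genes with 7 entries, of which 3 entries of 2 genes were active (42.9% of entries, beside 70.2% of all entries). Krt19, a small type I keratin without a tail domain that is made in many ducts, was active in both of its entries, at 0.11 (NM_008471) and 0.08 (NM_001313963). Krt7, a type II keratin of ducts and glands, was listed at 0.01 (NM_033073), the lowest value of the active keratins. Krt8, Krt18, Krt20 and Krt23 were each marked Inactive in their single entry. Thus the K7 and K19 genes were both active at low values, while the genes of the K8 and K18 pair were both below the threshold. Krt7 is 19.3 kb long, Krt19 7.86 kb, Krt8 7.63 kb and Krt18 3.81 kb. At a given density a shorter gene body holds fewer reads, and the part of length in this contrast was not tested. Krt19 exceeded 19.2% of active entries at its higher value, and Krt7 exceeded 0.908%.

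The highest value of the family belonged to Krt80 at 0.8 (NM_028770), a type II keratin of differentiated epithelial cells, which exceeded 47.6% of active entries. Krt13, the type I keratin of oesophageal and oral mucosa, followed at 0.4 (NM_010662) and 0.29 (NM_001313949), so that Krt80 was 2.0 times the higher Krt13 value and 7.27 times the higher Krt19 value. No other keratin entry exceeded 0.11, and the values of both genes fell below the median of active entries. Krt10, the partner of K1 in suprabasal epidermis, stood at 0.03 (NM_010660), and Krt9, the type I keratin of palm and sole epidermis, at 0.02 (NM_201255). Of the basal keratins Krt14 was listed at 0.03 (NM_001313956) and 0.02 (NM_001313957), while its partner Krt5 and the basal Krt15 were marked Inactive. Entries of 1 gene share most of their gene body and are not independent measurements, and the table is rounded to 2 decimals, so values of 0.03 and below differ by few rounding steps.

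**Figure D2:**
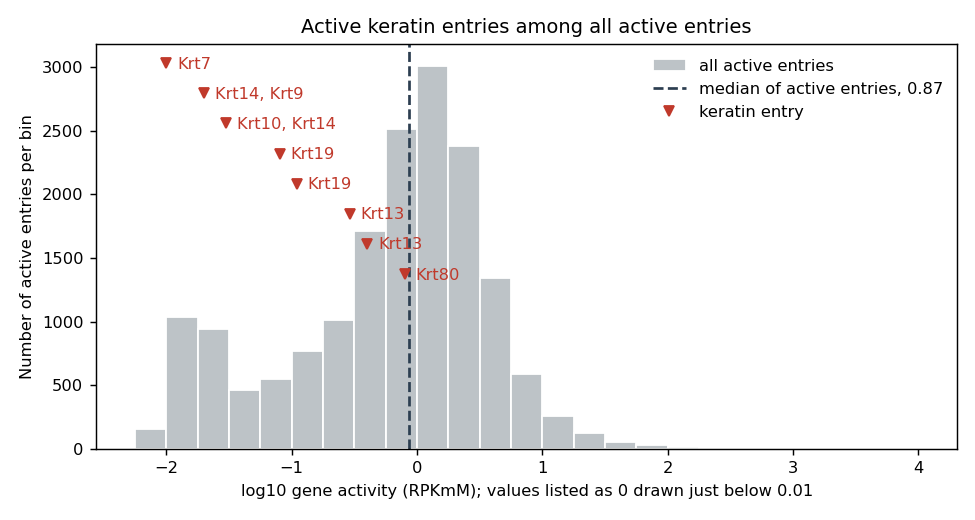
Grey bars count all active entries by log10 gene activity, the dashed line marks their median of 0.87, and each red triangle marks keratin entries at their activity, with height used only to separate the labels. Every keratin triangle lies to the left of the median, with Krt80 nearest to it and Krt7, Krt9, Krt10 and Krt14 at 0.03 or below.

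Counted by gene symbol, 31.3% of all genes of the table were Inactive in every entry and 68.7% had an active entry. The remaining keratin roles were marked Inactive throughout. All 18 keratins assigned to hair and all 8 of the inner root sheath (Krt25 to Krt28 and Krt71 to Krt74) had no active entry. The same held for all 6 keratins of stress and skin appendages (Krt6a, Krt6b, Krt16, Krt17, Krt42 and Krt75). The hair keratins were assigned by number alone, as Krt31 to Krt40 and Krt81 to Krt90 as far as listed. Of the 13 suprabasal and other differentiated keratins 9 were Inactive, including the epidermal Krt1 and Krt2, the mucosal Krt4 and the corneal Krt12. Krt222, a keratin-related gene without the head domain, was Inactive as well. By type, 5 of 27 type I genes and 2 of 27 type II genes were active. Among 6 textbook pairs of a type II and a type I keratin, K7 with K19 had both genes active, K5 with K14, K1 with K10 and K4 with K13 had the type I gene alone active, and K8 with K18 and K6a with K16 had neither.

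**Figure D3:**
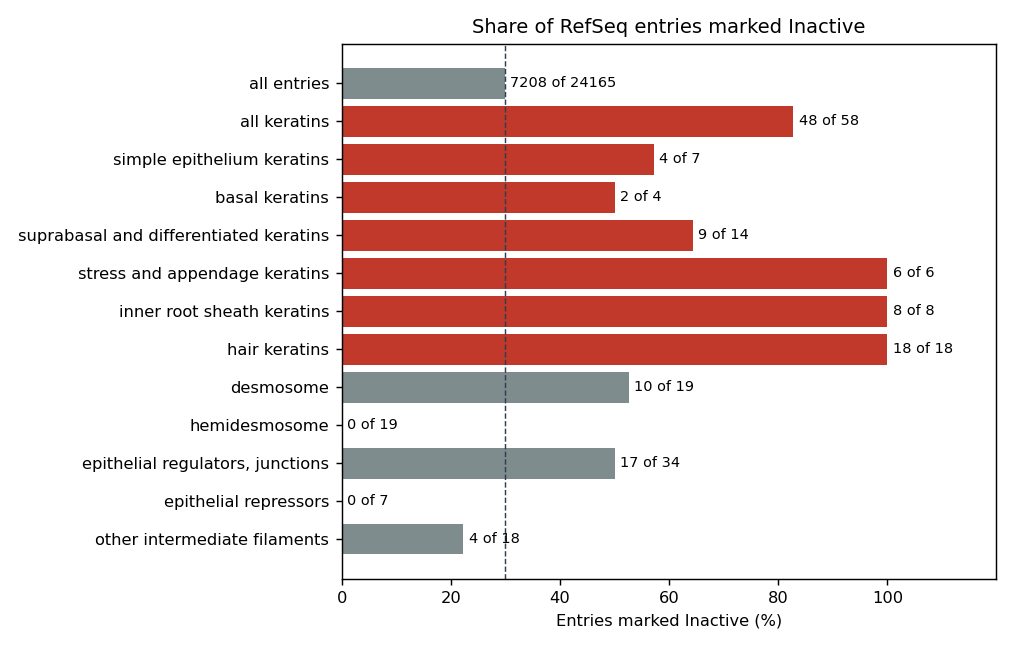
Bars show the percentage of RefSeq entries marked Inactive, with the counts beside each bar, for all entries, for keratins by role (red) and for lists of related genes (grey), and the dashed line marks the 29.8% of all entries. Hair, inner root sheath, and stress and appendage keratins reach 100%, while hemidesmosome genes and epithelial repressors have no Inactive entry.

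The positions of the active keratins were read along the clusters as a description. On chromosome 11 of mm9 the keratins span 1037 kb from Krt222 to Krt42, and 4 of the 5 active genes lay within 90.2 kb (chr11:99978641-100068862), in the order Krt13, Krt15, Krt19, Krt9 and Krt14, of which Krt15 alone was Inactive. The ends of this stretch were set at active genes after their values were seen, so its share of active genes is no evidence of clustering. Krt15 lies 10.2 kb upstream of Krt13 and 4.86 kb downstream of Krt19. Krt13 occupies chr11:99978641-99982880, Krt19 chr11:100002124-100009979, Krt9 chr11:100048095-100054560 and Krt14 chr11:100064476-100068862, all on the minus strand. Krt10 (chr11:99246568-99250678, minus strand) was active apart from these, between the Inactive genes Krt28 and Krt12. On chromosome 15 the cluster with Krt18 spans 685 kb, and its 2 active genes were the first at the low-coordinate end, Krt80 (chr15:101177875-101200556, minus strand) and Krt7 (chr15:101241474-101260744, plus strand), which are divergent with 40.9 kb between them. The other neighbour of Krt80, 6030408B16Rik, had 0.02, and the hair keratin Krt87, 1.18 kb beyond Krt7, was Inactive.

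The nearest measured genes at the other edges of the clusters had higher values. Smarce1, a chromatin remodelling subunit gene 1.74 kb from Krt222, had 2.73, and Eif1, a translation initiation factor gene past Krt42, had 6.23. Eif4b, another translation initiation factor gene 41.7 kb past Krt18, had 28.06. The Inactive genes Krt8 and Krt18 stand in divergent orientation, 23.9 kb apart.

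**Figure D4:**
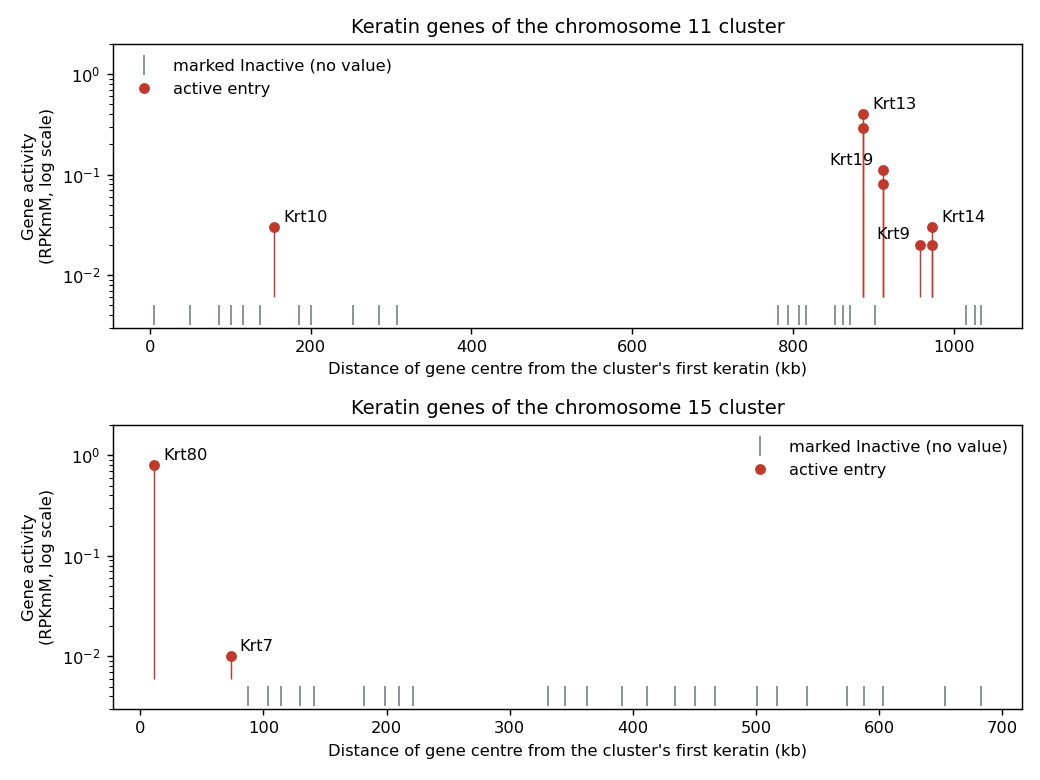
Each panel shows a keratin cluster, with the distance of the gene centre from the first keratin in kb on the x axis and gene activity in RPKmM on a log y axis. Red points are active entries and grey ticks at the foot are genes marked Inactive, which have no value. Active genes other than Krt10 sit between Krt13 and Krt14 in the upper panel and at the left end in the lower panel.

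Keratin genes are short, and at a given density a short gene body holds fewer reads to set against the background. With 57 of 58 entries matched to a gene of the GENCODE annotation, keratin genes measured 2.87 to 22.7 kb with a median of 6.79 kb. In that length range 33.0% of the entries of all genes were marked Inactive. Between 5 and 10 kb, 28 of 31 keratin entries were Inactive (90.3%), beside 36.2% of all entries, and between 10 and 20 kb 8 of 9 were (88.9%, beside 28.1%). Between 3 and 5 kb 10 of 15 keratin entries were Inactive (66.7%), beside 42.7%, and the lowest activity listed for any entry of that length was 0.01. The single keratin entry above 20 kb was Krt80, the most active. The part of gene length in the Inactive calls was not tested.

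**Figure D5:**
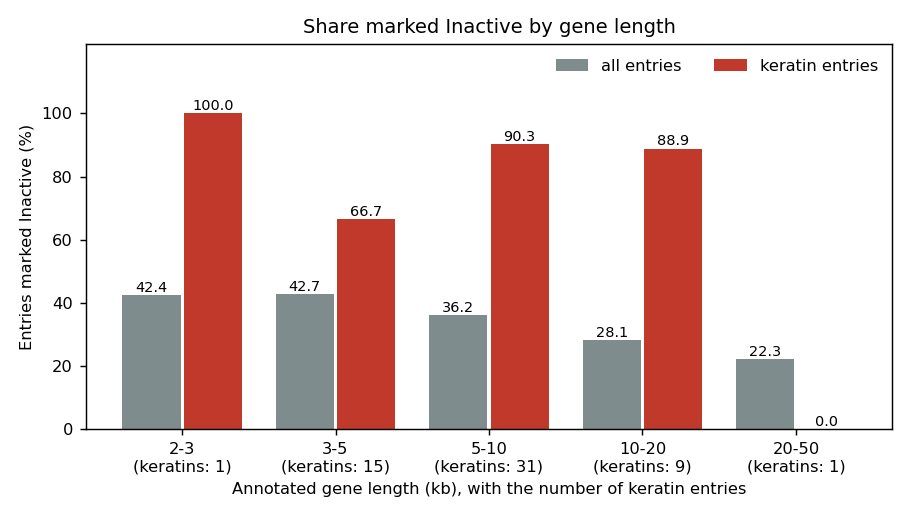
Bars give the percentage of entries marked Inactive in each class of annotated gene length in kb, for all entries (grey) and keratin entries (red), with the number of keratin entries under each class. The keratin share is the higher in every class from 2 to 20 kb, and the single keratin entry of 20 to 50 kb, Krt80, was active.

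Reads had to map uniquely, and keratin paralogues are alike, so the share of each gene body that is unique was measured as the percentage of its 32-base windows found once in the mm9 genome. This share was 91.3% to 100% in the 7 active genes (median 96.1%) and 56.7% to 99.9% in 47 Inactive genes (median 95.3%). It was below 90% in 13 Inactive genes, lowest in Krt16 (56.7%), Krt6b (57.1%) and Krt6a (63.4%), and it was 83.6% in Krt8 and 96.6% in Krt18. The hair keratins among the 13 were Krt81 (70.5%), Krt87 (79.2%), Krt31 (80.7%), Krt86 (80.7%), Krt83 (83.2%), Krt34 (84.7%) and Krt33a (88.3%). The reads were longer than 32 bases and were shortened only where they failed to align, so these percentages are not the mappable shares of these data. RPKmM already divides by mappable bases. The part of unique mapping in the Inactive calls was not tested.

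The surrounding epithelial programme was measured in lists of genes that connect to keratins. The desmosome, the junction that anchors keratin filaments, had 9 of 19 entries active (47.4%, beside 70.2% of all entries), with a median of 0.03 among them. Jup, the plakoglobin gene, whose product also serves other junctions, had 4.74, Pkp4 had 1.36, Pkp1 had 0.83 and Pkp2 had 0.76. Evpl had 0.03, Ppl had 0.02 and Pkp3 had 0.01 in each of its entries. Dsp, whose product desmoplakin binds keratin filaments, was Inactive, as were Perp, Dsg2, Dsg4, Dsg1a, Dsg1b, Dsg1c and the desmocollins Dsc1, Dsc2 and Dsc3, and Dsg3 was listed at 0.03. The hemidesmosome list was active in all 19 entries of 6 genes, with a median of 29.8 that rests on the many entries of Plec. Plec, the linker plectin that is also used by muscle, ranged from 28.91 to 65.38 over its entries and Dst from 4.14 to 5.62. Cd151 had 4.46 and 4.78, and the integrin gene Itga6 had 2.33. Itgb4, which encodes the integrin partner of the Itga6 product, and Col17a1 stood at 0.03 and 0.05.

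Regulators and junction genes of epithelia were active in 17 of 34 entries, beside 70.2% of all entries, with a median of 0.02. The factor gene Klf5 was the highest at 1.27, and Ocln (0.06), Grhl1 (0.05), Cdh1, which encodes E-cadherin (0.02), and Trp63, the basal keratinocyte factor (0.01 in each of its 4 entries) were far lower. Epcam, Esrp1, Esrp2, Grhl2, Ovol1, Ovol2, Cldn7, Elf3 and Ehf were Inactive. All 7 entries of the repressors of epithelial genes were active, with Zeb2 at 3.55 in both entries, Zeb1 at 3.19, Snai2 at 2.22, Twist2 at 1.0, Snai1 at 0.67 and Twist1 at 0.01. Of the cornified envelope and hair shaft list 3 of 10 entries were active (30.0%, beside 70.2% of all entries), Tgm1 at 0.06 and 0.05 and Sprr3 at 0.07. The authors analysed only genes above a minimum length, and this list held only 1 Krtap gene, so it covers a part of these families.

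The other intermediate filament genes included the highest values of all the lists. Of 18 entries 14 were active (77.8%), a share near the 70.2% of all entries, and the active entries had a median of 11.2. Nes, the nestin gene, had 198.2, Vim 146.13 and Des 72.45, which are 248, 183 and 90.6 times the value of Krt80. The lamin genes had 13.95 to 19.27 (Lmna), 4.68 (Lmnb1) and 4.42 (Lmnb2), and the neurofilament genes Nefm and Nefl had 15.13 and 8.43. Prph (0.02), Synm and 1 Gfap entry (0.01 each) and Bfsp1 (listed as 0 after rounding) were at or below the level of the low keratins. The other Gfap entry, Nefh, Ina and Bfsp2 were Inactive.

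Markers of the labelled cell type were measured as well. All 7 myoblast markers were active, beside 68.7% of all genes, Myod1 at 2.39, Myf5 at 5.03, Cdh15 at 8.08, Itga7 at 13.29 and Chrna1 at 15.62 beside Vim and Des above. Of 8 epithelial cell markers 7 were in the table, and 2 of those, Cdh1 and Trp63, were active, at 0.02 or less.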

How the data were processed

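The data were GRO-seq reads of 2 replicate libraries from C2C12 myoblasts. Per the submitters' processing notes CASAVA 1.8 and Bowtie2 were used with the mm9 assembly. According to the methods, reads that failed to align were shortened from the 3′ end and mapped again, uniquely mapped reads were kept, those at rRNA and tRNA repeats were removed, and the libraries were pooled. The authors deposited gene activity as RPKmM, an RPKM value over mappable bases, counted on the sense strand and leaving out the first 1 kb after the TSS. They marked an entry Inactive unless its density exceeded that of gene deserts by Poisson statistics at a false discovery rate below 0.01. Values have 2 decimals as deposited, and the table gives no read numbers per library or entry, so no counting interval was computed. Pooling removes the spread between libraries.

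Members and lists were chosen with earlier results of these data known. Counts, shares and medians over RefSeq entries were computed without a test, because entries are not replicates, and the counting code was tested on simulated data. Gene positions and lengths came from GENCODE vM1 on mm9, by symbol or, where names differed, by a synonym with a matching length (91.2% of all entries matched). Promoter windows were searched independently for each motif on both strands, and no matches of different motifs overlapped in keratin promoters. Genes named were every active keratin, every simple-epithelium keratin, the others by role, active members of the lists and the nearest neighbours. Inactive genes of the lists, the stretch from Krt13 to Krt14, Smarce1, Eif1 and Eif4b, and the promoters and sequence windows shown, were chosen after values were seen. Python 3.11.15, numpy 2.4.6, pandas 2.3.3, scipy 1.17.1 and matplotlib 3.10.9 were used. Alternatives were a single entry per symbol, activity floors of 0.01 and 0.1, NM_ entries only, leaving out Krt222, genes of at least 5 kb, and geometric means with a pseudocount of 0.01 or 0.001. A share was taken as moved outside the 95% exact binomial interval of the value over all members, and a count beyond 1.5 times.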

Additional observations from a re-analysis of the deposited data

How the results depend on the processing

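The 48 Inactive keratin entries became 47 to 54 under the alternatives other than the 5 kb minimum. That minimum left fewer entries in all, of which 36 were Inactive (87.8%). With 58 entries the Inactive count could not rise to 1.5 times 48, so this criterion could not have marked a rise as moved. The floor of 0.01 could change nothing, because no active keratin entry was listed below 0.01. With activity required to reach 0.1, the Inactive share was 93.1%, 4 entries stayed active with a median of 0.345, and 1 simple-epithelium entry stayed active. With genes of at least 5 kb, 5 entries were active with a median of 0.08. The median was 0.03 with a single entry per symbol, by the most or the least active entry, and the geometric mean was 0.0789 with 0.01 added and 0.0713 with 0.001 added. The share of all entries marked Inactive was 33.0% in the keratin length range and 31.3% per symbol. The other alternatives, a floor of 0.01, NM_ entries and leaving out Krt222, kept every count within 1.5 times and the same median. No paired analysis was possible because the table holds 1 pooled value per entry, and leaving out a replicate was not run for the same reason. Depth may limit the lowest values, which carry 1 or 2 rounding steps, and its part was not tested. An Inactive mark does not show that no polymerase was engaged.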

Other observations

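Values are given here for some genes outside the family as defined, chosen after the data were seen. Krtcap2, which encodes a subunit of the oligosaccharyltransferase complex, was active at 1.91 and 1.93 in its 2 entries, above the value of Krt80. Krtdap, the keratinocyte differentiation-associated gene, the keratin-associated protein gene Krtap4-13, and the predicted genes Gm5414, Gm5478, Gm6042 and Gm11554 were marked Inactive.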
